A study of Mus musculus with 4 samples.

Results

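Tal1 occupancy was measured by chromatin immunoprecipitation and sequencing (ChIP-seq) in lineage-negative mouse bone marrow, with an antibody against Scl/Tal1 on one side and control IgG on the other. These are 2 of the 4 libraries of the series, chosen by their antibody labels, and the remaining pair was not used here. The cells were bone marrow hematopoietic progenitors left after magnetic beads had taken out Lin+ cells, and both libraries carry the same cell label. The sources used here do not state strain, sex, age or number of animals, nor whether both libraries came from one preparation. The fraction is enriched for stem and progenitor cells but is a mixture, so the tags of one cell type cannot be told apart from those of another. The files hold DNA tags and no expression, so the cell label could not be checked against marker genes. Each side has 1 library. Every test and interval below compares these libraries, covers counting error only and says nothing of the spread between animals or immunoprecipitations.

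Tal1, also called Scl, is a basic helix-loop-helix transcription factor. It binds DNA as a dimer with E proteins at short E-box motifs, and in blood cells it is found in complexes with Gata factors, Lmo2 and Ldb1 at enhancers and promoters. It is known for its part in specifying blood stem cells in the embryo and in maturing red cells and megakaryocytes. No genome or annotation of build mm8, in which the tags are placed, was used, so regions are given by position in mm8 without genes or sequence.

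On chromosomes 1 to 19, Tal1 tags stood above IgG at 36061 regions. A region is a run of overlapping or touching 400 bp windows, each with at least 4 times the expected tags and a false discovery rate not above 0.01 (one-sided Poisson test, Benjamini-Hochberg adjustment). The expectation was the largest of the Tal1 genome mean (1.58 tags per window) and the scaled IgG tags in 1, 5 and 10 kb around the window, so it is never 0. Of 15510417 windows with a Tal1 tag, 156393 passed, or 1.01%. With the roles exchanged, 614 of 9657064 windows with an IgG tag passed, or 0.00636%, which made 226 regions. At equal tag numbers Tal1 had 20920 regions and the exchange gave 209, or 0.999% of that number. The regions covered 27.1 Mb, or 1.23% of the 2202 Mb of 1 kb bins that held a tag. They took in 1111084 Tal1 tags, 12.8% of the library (95% exact interval 12.7 to 12.8), and 38288 IgG tags, 1.13% of that library (1.11 to 1.14). Per kept tag, Tal1 was thus 11.3-fold above IgG in these regions (11.2 to 11.5), a value that the choice of regions by the same tags raises. In 13524 regions, or 37.5%, IgG had no tag, which allows up to 3 tags (one-sided 95% Poisson limit). The share among other stretches of these widths was not counted. IgG had 1.55 tags per covered kb outside regions, so stretches of these widths without an IgG tag are not particular to Tal1 regions.

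The libraries were of unequal depth. After each position and strand was counted once, 8701045 Tal1 tags of 36 bp and 3401045 IgG tags of 25 bp remained on these chromosomes, so IgG counts were multiplied by 2.56. Repeated positions had made up 18.4% of the Tal1 tags and 30.1% of the IgG tags. One 10 kb bin of chromosome 16, from 60830001 to 60840000, held 113029 IgG tags as deposited and 20 once repeats were removed. The longer Tal1 tags can be placed in more of the genome than IgG tags, and the part of this in the results was not tested directly. Inside Tal1 regions 85.9% of the deposited Tal1 tags had an alignment score of at least 100, against 79.6% outside. Repeats were more common inside regions (24.2%) than outside (17.5%).

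Tal1 enrichment was found on every autosome, but unevenly. Chromosome 11 had the highest density, with 3016 regions or 26.7 per covered Mb (95% exact Poisson interval 25.8 to 27.7). Chromosome 19 followed with 24.5 per Mb (23.2 to 25.8) and chromosome 17 with 21.8 (20.8 to 22.8). The lowest was chromosome 14, with 1190 regions or 11.2 per Mb (10.5 to 11.8), next to chromosome 3 with 11.8 (11.3 to 12.4). The highest density was 2.39 times the lowest, and all autosomes together had 16.4 regions per Mb. Of the 18 neighbours in this order, 16 had overlapping intervals. Chromosome 19 stood above chromosome 17, and chromosome 17 above chromosome 7 (19.3 per Mb, 18.5 to 20.1), beyond counting error. Regions lie in groups, so these intervals are too narrow.

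**Figure D1:**
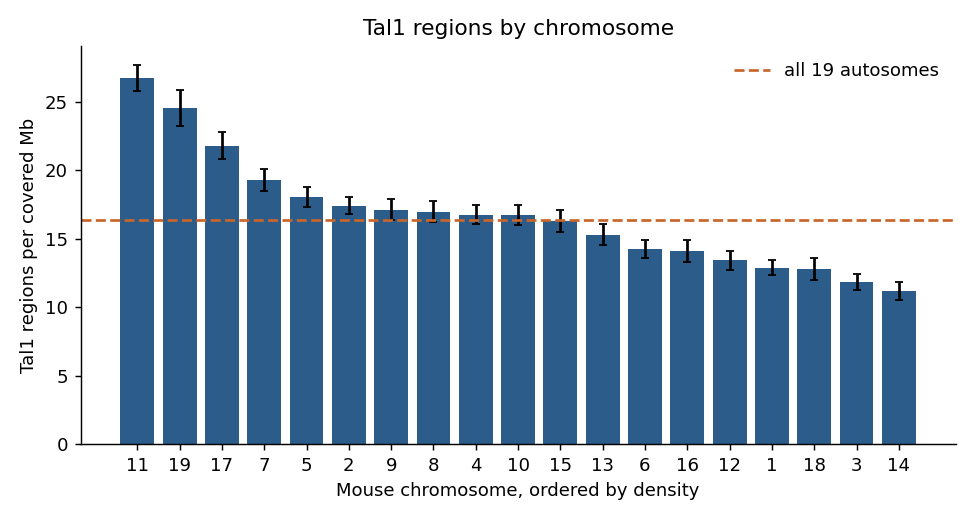
Tal1 regions per covered Mb (vertical axis) on each of the 19 autosomes, ordered by density, with 95% exact Poisson intervals as error bars and the value over all autosomes (16.4) as a dashed line. Chromosomes 11, 19 and 17 stand above the rest, and the densities fall from 26.7 to 11.2 per Mb.

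The chromosomes differed in how many regions they had and much less in the median strength of the regions called. The median fold of a region was between 7.33 and 7.94 on every autosome, and the median width was 700 bp on all of them. Fold rests on whole tag counts, width comes in steps of 100 bp, and both are cut at the calling threshold. Small differences between chromosomes could therefore not show in these medians. The share of a chromosome's Tal1 tags that lay in regions ran from 8.76% on chromosome 14 to 18.2% on chromosome 11. The share of its IgG tags in the same regions ran from 0.727% to 1.94%. Outside regions, the Tal1 to IgG tag ratio, relative to the whole, was 1.13 on chromosome 11 and 0.937 on chromosome 14, so tags not called as enriched differed in the same direction.

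Below the chromosome scale the spread was more uneven. Of 237124 bins of 10 kb with a tag, 26639 held the summit of a Tal1 region, or 11.2% (95% exact interval 11.1 to 11.4, too narrow because regions lie in groups). Most of these bins, 19607, held 1 region, 5192 held 2, 1394 held 3 and 446 held 4 or more. Among 2363 bins of 1 Mb with at least 500 kb covered, the median bin had 9 regions, the bins at the 75th and 90th percentiles had 23 and 40, and 408 (17.3%) had none. The 236 fullest bins, 10% of them, held 35.9% of the regions, while the emptier 50% of bins held 8.35%.

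The fullest 1 Mb bin lay on chromosome 10 from 80000001 to 81000000 and had 132 regions, followed by its neighbour from 79000001 to 80000000 with 117. The third, on chromosome 8 from 125000001 to 126000000, had 112 regions. In the chromosome 10 bin, regions covered 116000 bp, and the bin held 9947 Tal1 tags and 1184 IgG tags. At the other end, the longest stretch between regions ran on chromosome 1 from 112032701 to 120138500, over 8105.8 kb. It was not empty of tags: 7130 of its 1 kb bins had one, and it held 18655 Tal1 and 11535 IgG tags. Its Tal1 density was 2.62 tags per covered kb, below the 3.49 found outside regions over all autosomes, while IgG was at 1.62 per covered kb against 1.55. The next longest stretches lay on chromosome 3 from 43899601 to 50539500 and on chromosome 5 from 9426501 to 15921700, with 2.98 and 3.12 Tal1 tags per covered kb.

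The same gradient was present across all 1 Mb bins. In the 25% of bins with fewest regions (0 or 1), Tal1 tags outside regions stood at 2.98 per covered kb and IgG tags at 1.75. In the 25% with most regions (23 to 132), Tal1 outside regions was at 4.16 and IgG at 1.37. The classes between had 3.22 and 3.61 for Tal1, and 1.60 and 1.49 for IgG. From class to class, Tal1 tags were denser and IgG tags sparser. The classes are cut by region number, and a region needs many Tal1 tags over an expectation that contains IgG tags. This order is therefore in part built in, and how large that part is was not tested. The Tal1 to IgG ratio outside regions, relative to the whole, went from 0.753 to 1.34. What part weak occupancy, mapping of the shorter IgG tags or base composition has in this was not tested. When the expectation was scaled by this ratio in each 1 Mb, an alternative chosen after seeing the data, 29907 regions passed the threshold, chromosome 11 was still the densest and chromosome 14 the sparsest (20.8 and 9.92 regions per Mb), and the 236 fullest bins held 31.0% of all regions, against 35.8% counted the same way without that scaling.

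**Figure D2:**
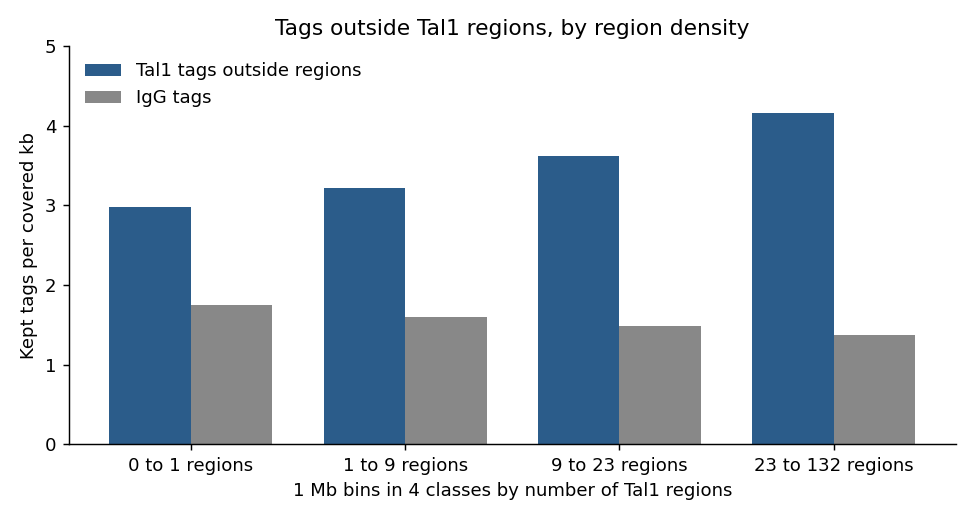
Kept tags per covered kb (vertical axis) in 1 Mb bins divided into 4 classes by their number of Tal1 regions (horizontal axis), for Tal1 tags outside regions and for IgG tags, each bar pooled over its bins. Tal1 goes from 2.98 to 4.16 and IgG from 1.75 to 1.37 with rising region number.

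Tag counts without any calling were concentrated too, but IgG was not subtracted here, so the densest bins need not hold Tal1 regions. With Tal1 thinned to the IgG tag number, the densest 1% of 10 kb bins held 5.98% of the Tal1 tags, against 2.47% of the IgG tags in the densest 1% for IgG. In 1 kb bins these shares were 10.9% and 4.52%, and in 100 kb bins 3.23% and 1.79%. Tal1 was the more concentrated library at each bin size, and the shares of both libraries were higher the smaller the bins. IgG had very dense bins as well: its fullest 10 kb bin held 1050 tags, against 1604 in the fullest for thinned Tal1.

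Tal1 regions were narrow. Their widths, which come in steps of 100 bp from the smallest possible 400 bp, had a median of 700 bp, with 500 bp and 800 bp at the 25th and 75th percentiles and 1400 bp at the 95th. With windows of 200 bp every 50 bp the median width was 350 bp. At the smallest width were 5290 regions (14.7%). Over 1000 bp were 4508 regions (12.5%), which held 34.8% of all Tal1 tags in regions. Only 270 (0.749%) were over 2000 bp.

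The called width depends on the window, so the tag profile was measured too. Regions were called on Tal1 tags thinned to the IgG number, and the 5300000 Tal1 tags left out of that call were counted around their summits. Tags had first been moved towards the fragment centre. These tags formed a peak 144 bp wide at 50% of its height over the flanks (3 to 5 kb from the summit). It was 140 bp wide for the strongest 25% of regions and 164 bp for the weakest 25%, with 146 and 151 bp between. The tags that made the call gave the reverse order, with 122 bp for the strongest 25% and 75.7 bp for the weakest. Summits were placed by those tags, of which weak regions have few, so neither order shows which class has the broader peaks.

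In the left-out tags, the 400 bp around the summit had 10.3 times the density of the flanks (95% exact interval 10.2 to 10.3). The tags that made the call gave 11.6 times (11.6 to 11.7), and IgG 1.09 times (1.07 to 1.11). By strength, the left-out tags stood at 5.03 times (4.97 to 5.08), 5.73 times (5.67 to 5.79), 8.13 times (8.05 to 8.21) and 20.7 times (20.5 to 20.8) the flanks, from the weakest to the strongest 25%. The order of strength therefore held in tags that had not set it, though they come from the same library. IgG was at 1.53 times its flanks (1.48 to 1.58) in the weakest class and at 0.905 times (0.869 to 0.942) in the strongest. The classes are cut by fold, whose expectation contains the IgG tags, so this order of IgG is built in.

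**Figure D3:**
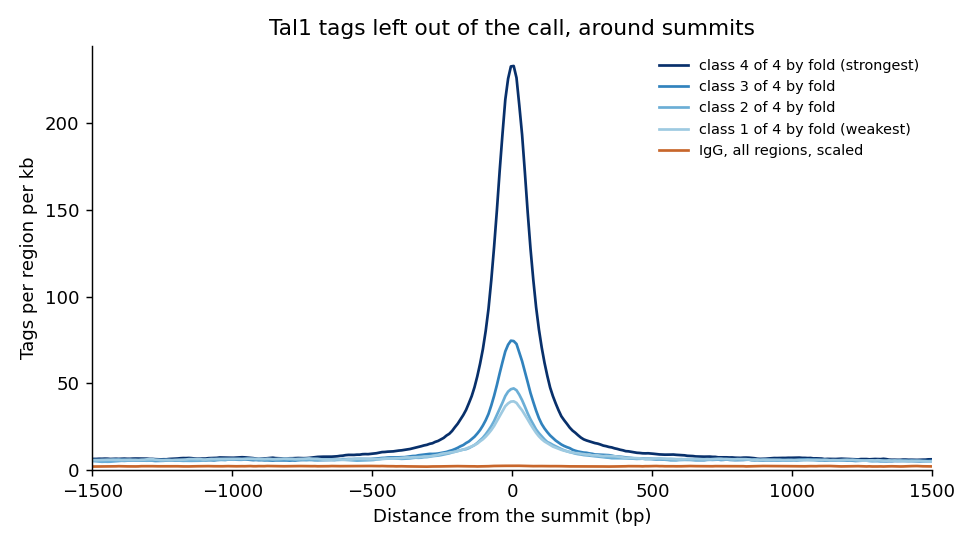
Tags per region per kb (vertical axis) within 1500 bp of the summit (horizontal axis), for Tal1 tags left out of the call in 4 classes of regions by fold, and for IgG over all regions scaled to the same tag number; curves are means over regions smoothed over 50 bp. The peaks are 140 to 164 bp wide at 50% of height. IgG rises only slightly, to 1.09 times its flanks in the 400 bp around the summit.

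The enrichment was small beyond 2 kb from the summit. Around 12766 regions with no other region within 10 kb, Tal1 density at 0.5 to 1 kb was 1.69 times that at 5 to 10 kb, at 1 to 2 kb 1.23 times and at 2 to 3 kb 1.08 times. IgG stood at 1.08, 1.02 and 1.01 times at the same distances. The Tal1 flanks of these lone regions held 4.02 tags per kb at 3 to 5 kb, against 8.63 for regions that had a neighbour within 10 kb, whose flanks include the neighbours.

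Most Tal1 regions were of modest strength, with a long tail of strong ones. The fold of a region, taken in its window with most tags, had a median of 7.59 (12.2 at the 75th percentile, 36.6 at the 95th and 220.2 at most). Under 8-fold were 53.6% of the regions. At least 10-fold were 12201 (33.8%), at least 20-fold 4547 (12.6%), at least 50-fold 973 (2.70%) and at least 100-fold 133 (0.369%). The median region held 19 Tal1 tags and 1 IgG tag. Ranked by tags, the upper 10% of regions held 37.1% of the Tal1 tags in regions, the upper 1% held 8.42%, and the lower 50% held 20.8%. These values depend on the settings. The share of the upper 10% was 44.2% with repeated tags kept and 33.1% with thinned Tal1 tags. The median fold was 12.7 when at least 8-fold was required.

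Regions called wider had a higher fold. The median fold was 5.50 in regions of 400 bp, 6.84 at 500 to 700 bp, 13.8 at 800 to 1000 bp, 16.5 at 1100 to 2000 bp and 38.04 beyond. Across regions, log2 width and log2 fold had a Pearson correlation of 0.706, given as a description because both come from the same tags and wider regions are easier to call when strong. In regions of 800 to 1000 bp the best 400 bp window held 84.4% of the tags, and beyond 2000 bp it held 48.6%.

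**Figure D4:**
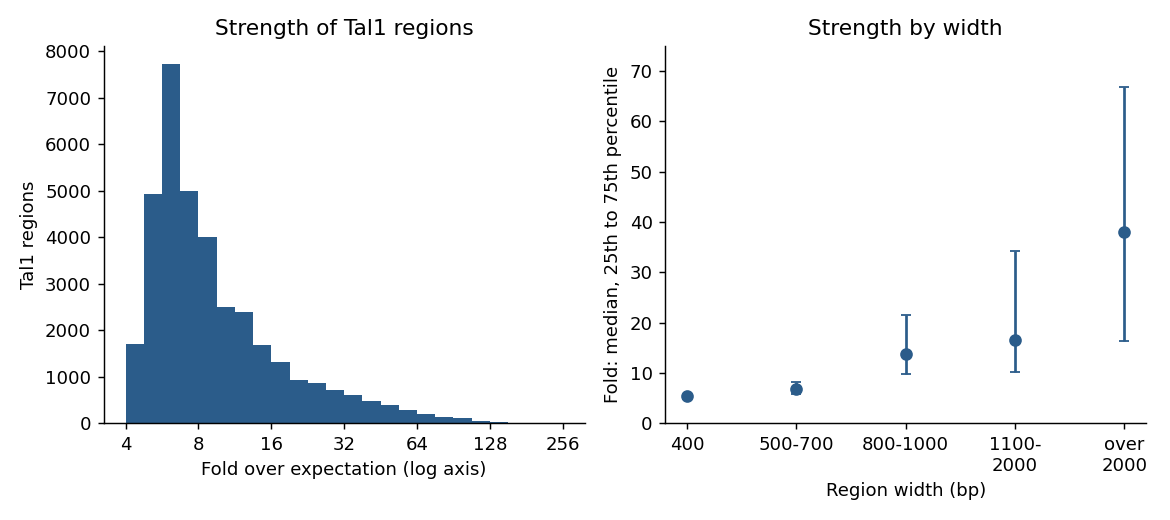
Left, number of Tal1 regions (vertical axis) by fold over expectation (log axis). Right, fold (median as a point, 25th to 75th percentile as a bar) by region width in bp; the median climbs from 5.50 at 400 bp to 38.04 over 2000 bp.

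The region with most tags in its best window lay on chromosome 16 from 32428301 to 32430800. It had 390 Tal1 tags in that window where 2.05 were expected, 191-fold, and 511 Tal1 against 2 IgG tags over its 2500 bp. A region of the same chromosome from 17551401 to 17552900 came next, with 369 tags in the window and 180-fold enrichment. The region of chromosome 11 from 95171901 to 95173700 had 348 tags and the largest fold of all, 220.2. By fold it was followed by chromosome 3 from 87986701 to 87988300 (326 tags, 206-fold) and chromosome 15 from 38487401 to 38489100 (318 tags, 201-fold, no IgG tag).

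The other 5 of the 10 regions with most tags lay on chromosome 7 from 80081401 to 80083600 (152-fold), chromosome 17 from 29586201 to 29587700 (83.1-fold), chromosome 5 from 121475901 to 121477600 (148.8-fold), chromosome 14 from 53659501 to 53661300 (162-fold) and chromosome 1 from 36863701 to 36865700 (63.7-fold). The last had 326 tags in its window, as many as the chromosome 3 region, and the lower fold reflects 5.12 expected tags in place of 1.58. Each of these 10 regions had another Tal1 region within 10 kb. The distance to the nearest one ran from 1.41 kb (chromosome 11) to 8.94 kb (chromosome 14). A neighbour within 10 kb was also present for 64.6% of all regions and for 69.9% of the strongest class by fold. Having one is therefore not particular to these 10 regions. Repeats made up 45.2% to 57.0% of the deposited Tal1 tags of these 10 regions, above the 24.2% over all regions.

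The widest regions had another shape. On chromosome 8, from 73627201 to 73633200, 389 Tal1 and 12 IgG tags were spread over 6000 bp, and the best window held 12.1% of the Tal1 tags at 24.2-fold. On chromosome 19, from 5793901 to 5799300, there were 308 Tal1 and 11 IgG tags over 5400 bp, with 34.4% in the best window at 34.5-fold. On chromosome 1, from 24565501 to 24570800, 2266 Tal1 and 2 IgG tags lay over 5300 bp, the most Tal1 tags of any region. There the best window held 12.4% of the tags, 63.3% of tags were on the forward strand, and 66.9% of deposited tags had a score of at least 100, against 85.9% over all regions. The Tal1 file lists no mitochondrial tag and the IgG file lists 935. Whether a nuclear copy of mitochondrial sequence lies in that region was not tested, and its 138-fold enrichment is given with that limit. Over all regions the forward share had a median of 50% (31.3% and 68.8% at the 5th and 95th percentiles), and 408 regions (1.13%) had under 20% of tags on one strand.

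Close to the threshold, the weakest regions were on chromosome 16 from 45268901 to 45269300, on chromosome 2 from 43861201 to 43861600 and on chromosome 18. Each had 14 Tal1 tags where 3.48 were expected, 4.02-fold. Just outside were windows on chromosome 11 from 49046001 to 49046400 (18 tags, 3.998-fold) and on chromosome 1 from 90108401 to 90108800 (61 tags and 6 IgG tags, 3.97-fold) and from 40300401 to 40300800 (13 tags, 3.97-fold). No window with fewer than 9 tags passed. Where the genome mean set the expectation, as in 13690 regions (37.96%), 9 tags are 5.69-fold, so no smaller observed fold could pass there at this depth. A site of lower true strength passes there only if its count happens to reach 9 tags.

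Tal1 regions lay close together. Neighbouring summits on the same chromosome were a median of 13219 bp apart, with 3.99 kb and 39.1 kb at the 25th and 75th percentiles. The mean was 66.3 kb, far above the median, and 419 gaps over 1000 kb together spanned 840.9 Mb. The nearest other summit was a median of 5538 bp away. It was within 2 kb for 24.3% of regions (95% exact interval 23.9 to 24.7), within 5 kb for 47.5% (46.9 to 47.98), within 10 kb for 64.6% (64.1 to 65.1) and within 100 kb for 96.6% (96.5 to 96.8). Only 1209 regions (3.35%) had none within 100 kb. Nearness is mutual and regions lie in groups, so the intervals given here are too narrow. By chromosome the median distance ran from 10406 bp on chromosome 11 to 18427 bp on chromosome 3.

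Other Tal1 regions grew denser with nearness. Between 500 and 1000 kb from a summit there were 2.55 other regions per 100 kb. This became 3.62 at 100 to 200 kb, 4.81 at 20 to 50 kb, 6.14 at 5 to 10 kb and 10.1 at 1 to 2 kb, which is 3.96 times the value at 500 to 1000 kb. Most of this rise lay below 20 kb, but density was already 1.42 times that far value at 100 to 200 kb. Counted among themselves, the strongest 25% of regions by fold had 5.26 times as many pairs per kb at 1 to 2 kb as at 500 to 1000 kb, and the weakest 25% had 3.74 times. At 10 to 20 kb these values were 2.79 and 1.94. The strongest class was thus the more tightly grouped within 50 kb. Windows that touch are joined into 1 region, so the shortest distances are undercounted. A stretch split into several regions works the other way and adds short distances. With regions up to 500 bp apart joined, 33314 regions remained and neighbouring summits were a median of 15695 bp apart. The share with another within 10 kb was then 59.3%.

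**Figure D5:**
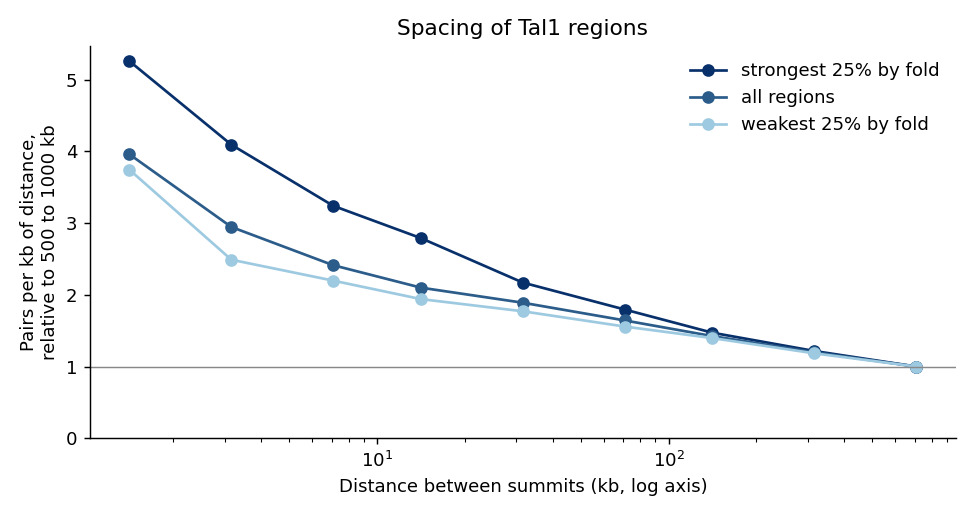
Pairs of Tal1 summits per kb of distance, relative to 500 to 1000 kb (vertical axis), by distance between summits in kb (horizontal log axis), for all regions and for the strongest and weakest 25% by fold. All 3 curves fall with distance, from 3.96 at 1 to 2 kb for all regions, and the strongest class lies highest.

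Strong regions also had neighbours of any strength nearer. A region within 10 kb was present for 69.9% of the strongest 25% (68.9 to 70.9) and for 61.01% of the weakest 25% (59.998 to 62.02), and the median distance to the nearest was 4667 bp against 6176 bp. The intervals treat regions as independent, which grouped regions are not, so they are too narrow. Between adjacent regions, log2 fold showed little correlation. It was 0.0359 over 4808 pairs up to 2 kb apart and 0.0161 over 5365 pairs 50 to 200 kb apart. Over 1571 pairs 200 to 1000 kb apart it was 0.0523, with no order by distance. Fold is cut at the calling threshold and rests on whole tag counts, which can lower these correlations. These are descriptions across regions of 1 library.

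Linking regions whose summits lay within 10 kb gave 20314 runs. Of these 12766 were single regions, 4001 were pairs, 1662 had 3 regions and 1062 had 5 or more. Runs of 5 or more held 7015 regions (19.5%), and 96 runs had 10 or more. The longest was on chromosome 8 from 125149401 to 125217800, with 23 regions in 68400 bp. It held 1361 Tal1 and 24 IgG tags, and its regions were between 5.69-fold and 115-fold. The next was on chromosome 9 from 63476201 to 63558200, with 22 regions, 848 Tal1 and 27 IgG tags. Another on chromosome 8, from 125541701 to 125608000, had 21 regions and 2066 Tal1 tags. Single regions had a median fold of 7.17 and regions in runs of 5 or more 8.22. At least 20-fold were 9.56% of the former and 17.4% of the latter, with 1.001 and 1.13 IgG tags per region.

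Depth set how many regions were seen and how close they stood. With Tal1 thinned to the IgG tag number, 20920 regions were called. Of these 95.9% overlapped a region of the full list, and 54.3% of the full list overlapped one of these. Summits were then a median of 22165 bp apart, the share with another within 10 kb was 52.5%, and the median fold was 12.1, since at least 6 tags were needed over a smaller expectation. The ratio of chromosome 11 to chromosome 14 moved little, to 2.47, and the median width stayed at 700 bp.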

How the data were processed

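ChIP-seq tags of Tal1 and of IgG, 1 library each, were taken as deposited, 1 line per tag; repeats had been kept by the authors. Positions are in mm8, per the submitters' processing notes; aligner and filters were not given in the sources used here. Each tag of the deposited Tal1 file has an alignment score, from 4 to 119, and the IgG file has 0 throughout; the scale is not stated, and scores served only as a check and an alternative. Tags without a mismatch were 90.9% for Tal1 and 63.4% for IgG.

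Tags on chromosomes 1 to 19 were counted once per 5′ end and strand and moved by 54 bp, 50% of the strand displacement (107 bp in both libraries, searched from 60 bp upwards). Windows of 400 bp every 100 bp with at least 3 tags were tested, with adjustment over all windows with a tag. The summit is the tag position with most tags within 50 bp. Intervals are 95% exact (Clopper-Pearson, conditional binomial for ratios, Poisson for densities). Counting used Python 3.11.15, numpy 2.4.6, scipy 1.17.1 and pandas 2.3.3, and the calling step was tested on simulated data. Alternatives covered repeats, depth, mismatches, IgG coverage, window, control, false discovery rate, fold, joining, shift and score. Named regions were, by rule, the 10 with most tags in the best window, the 3 widest, those with the 3 largest and lowest folds, the windows just under the threshold, the fullest 1 Mb bin and the longest stretches without a region. Others named were chosen after their values were seen. The rule and settings were chosen with earlier results of these data known.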

Additional observations from a re-analysis of the deposited data

Results flagged for a closer look

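Chromosome X was left out of the comparison, and Tal1 tags were enriched there too. When it was added to the same call, 536 regions lay on chromosome X, where the exchange of Tal1 and IgG gave 17. On the autosomes the exchange gave 226 against 36061, or 0.627%, so this background was a larger share on chromosome X. Chromosome X had 4.08 regions per covered Mb (95% exact Poisson interval 3.75 to 4.45), below chromosome 14, the lowest autosome, at 11.2. The regions of chromosome X had a median fold of 7.06 and a median width of 700 bp, and neighbouring summits were a median of 47833 bp apart. Tal1 tags on chromosome X stood at 2.97 per covered kb and IgG tags at 1.62, against 3.65 and 1.59 on chromosome 14. The sources used here do not state the sex of the animals, and its part in the lower density was not tested.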

How the results depend on the processing

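The number of regions stayed within 1.5 times of 36061 under 10 of 12 alternatives. The exceptions were Tal1 thinned to the IgG tag number (20920 regions, 16887 bins of 10 kb with a region) and a minimum of 8-fold (17671 regions, 14571 bins). The median width was 700 bp in all but the 200 bp windows, where it was 350 bp, with a median fold of 11.1 and a distance of 11070.5 bp. Median fold and median distance between neighbouring summits were 6.65 and 11831.5 bp with repeated tags kept, 12.1 and 22165 bp with thinned Tal1 tags, 8.12 and 14131 bp with tags without a mismatch, 8.22 and 11109 bp with the genome mean alone, 8.79 and 15803 bp at a false discovery rate of 0.001, 12.7 and 25343 bp at 8-fold, and 7.68 and 15695 bp when regions up to 500 bp apart were joined. In 10 kb bins with at least 50% of the mean IgG tags the distance was 13933 bp, and with a shift of 75 bp the fold was 7.594. Of the alternatives chosen after seeing the data, Tal1 scores of at least 100 gave a fold of 8.20, and an expectation scaled by the tag ratio of each 1 Mb gave 7.02 and 17906 bp. The cause was not tested beyond what each alternative does by construction, such as fewer tags or larger joined regions. Over the 12 alternatives, the density ratio of chromosome 11 to 14 was 2.10 to 2.47, and the share of regions with another within 10 kb was 49.6% to 68.9%. Flanks of 5 to 10 kb gave a summit density of 9.001 times in place of 8.33, and edges a median gap of 12400 bp. No paired analysis was possible because each antibody has 1 library, and for the same reason no replicate could be left out. With IgG at 3401045 tags, the expectation in a 1 kb stretch rests on few tags.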
